A study of Homo sapiens with 24 samples.

Results

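Bivalent coding promoters of untreated PANC-1 cells, a line from a human pancreatic ductal carcinoma, were selected on measured values. A protein-coding gene was taken as bivalent where the window of 1 kb each side of at least 1 of its transcription start sites (TSSs) overlapped an H3K4me3 peak in both siControl libraries (control siRNA, no TGFβ) and an H3K27me3 peak in both siControl libraries. By this rule 2326 of 19820 coding genes (11.7%) were bivalent, at 2241 separate promoter loci. The promoters with H3K4me3 alone numbered 10838, those with H3K27me3 alone 1456 and those with neither mark 2890, and 2310 had at least 1 of the marks in only 1 of the 2 libraries.

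Bivalent promoters carry H3K4me3, the trimethylation that marks promoters where transcription can start, together with H3K27me3, the trimethylation laid down by Polycomb repressive complex 2. The combination was first described at developmental genes of stem cells, where it is thought to hold genes silent while leaving them open to activation, and it is also found in cancer cell lines. H3K27ac, an acetylation of active promoters and enhancers, sits on the same lysine as H3K27me3, so that a single histone tail cannot carry both. PHF13, the protein depleted in the study, holds a PHD finger that reads H3K4me3.

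The 3 modifications were measured by ChIP-seq in 3 groups of PANC-1 cells with 2 libraries each, 18 peak lists in all. Cells of the siControl group received a control siRNA and no TGFβ. Cells of the siControl+TGFβ group received the control siRNA and TGFβ, which induces epithelial-to-mesenchymal transition (EMT), at 10 ng/ml for 48 h. Cells of the siPHF13+TGFβ group received an siRNA against PHF13 and the same TGFβ treatment. All groups come from a single established line, a transient siRNA lowers but does not delete its target, and no source used here says whether the 2 libraries of a group came from separate cultures. The peak lists hold no RNA or protein level, so the depletion of PHF13 was not checked here. A p-value therefore measures the spread between 2 libraries.

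The lists differed in length within groups, and 1 library stood apart. siPHF13+TGFβ replicate 1 held the fewest peaks of all 3 modifications, 27869 for H3K4me3, 59573 for H3K27me3 and 6004 for H3K27ac, where the other lists held 30770 to 39202, 98211 to 165717 and 19413 to 36104. For that library, and for the H3K27me3 list of the first siControl replicate, a table of the study gives higher peak numbers than the deposited lists hold. The lists were used as deposited, and how results that rest on them would differ with the fuller lists was not tested. The lists hold no read counts and depth is unknown from them. The names of peaks inside the siPHF13+TGFβ lists read NCT, which the study uses for siControl+TGFβ, and those inside the siControl+TGFβ lists read 3AT. The labels set the groups here, and the peak numbers in the study's table match the labelled conditions elsewhere. If the names were right instead, each comparison that uses siControl+TGFβ would change, and that of PHF13 depletion would turn. H3K4me3 peaks were found at 7 of 8 ductal epithelial identity genes in each of the 6 lists, and at 0 of 5 acinar, 1 of 5 immune and 1 of 4 endothelial genes. In a given list H3K27ac was found at 3 to 5 of the 8 epithelial genes and at 0 of the others. H3K27me3 was found at 1 or 2 of the 8, and H3K4me3 by itself does not show that a gene is active.

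To show what such promoters look like, the 250 bases that end at the TSS (hg19, the chromosome sequences of GRCh37, given 5′ to 3′ on the strand of the gene) are printed for 5 genes, with CpG dinucleotides in capitals. They were taken by the rule for named genes, from the lists of HOX, collagen and mesenchymal genes and from the genes whose H3K27ac changed. HOXA13, a limb and hindgut patterning factor, is shown from chr7:27239710-27239959 (minus strand). COL13A1, a transmembrane collagen, is from chr10:71561387-71561636 (plus strand). FN1, which encodes the matrix protein fibronectin, is from chr2:216300796-216301045 (minus strand). FBXL15, an F-box protein, is from chr10:104178697-104178946 (plus strand). MGLL, the lipase that hydrolyses monoacylglycerols, is from chr3:127542114-127542363 (minus strand).
HOXA13: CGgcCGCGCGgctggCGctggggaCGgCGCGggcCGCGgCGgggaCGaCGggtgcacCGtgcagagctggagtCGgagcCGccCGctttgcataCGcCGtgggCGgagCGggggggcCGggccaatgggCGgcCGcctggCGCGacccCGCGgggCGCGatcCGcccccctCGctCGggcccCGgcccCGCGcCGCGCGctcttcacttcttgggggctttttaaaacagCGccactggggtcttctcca
COL13A1: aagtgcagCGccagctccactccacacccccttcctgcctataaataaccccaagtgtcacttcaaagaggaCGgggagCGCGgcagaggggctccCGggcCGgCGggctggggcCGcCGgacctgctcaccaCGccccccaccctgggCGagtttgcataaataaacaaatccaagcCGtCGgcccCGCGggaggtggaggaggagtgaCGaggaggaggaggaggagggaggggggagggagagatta
FN1: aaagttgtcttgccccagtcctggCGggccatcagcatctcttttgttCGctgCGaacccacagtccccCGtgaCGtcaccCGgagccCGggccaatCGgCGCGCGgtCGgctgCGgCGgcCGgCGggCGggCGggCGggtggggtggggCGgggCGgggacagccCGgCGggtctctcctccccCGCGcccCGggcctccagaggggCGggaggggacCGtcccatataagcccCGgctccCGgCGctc
FBXL15: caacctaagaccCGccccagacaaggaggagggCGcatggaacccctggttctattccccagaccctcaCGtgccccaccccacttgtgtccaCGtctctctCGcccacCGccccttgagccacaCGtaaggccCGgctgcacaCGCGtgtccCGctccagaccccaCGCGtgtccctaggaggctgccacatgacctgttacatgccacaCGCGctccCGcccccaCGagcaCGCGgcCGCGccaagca
MGLL: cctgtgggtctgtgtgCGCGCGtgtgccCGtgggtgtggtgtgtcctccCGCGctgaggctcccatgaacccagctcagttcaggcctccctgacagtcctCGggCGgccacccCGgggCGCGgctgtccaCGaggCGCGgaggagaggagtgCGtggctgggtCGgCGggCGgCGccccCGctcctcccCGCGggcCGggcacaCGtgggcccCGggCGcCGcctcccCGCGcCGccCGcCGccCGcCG

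The stretches held between 16 CpGs in COL13A1 and 40 in HOXA13, with 34 in MGLL, 31 in FN1 and 21 in FBXL15. Base composition was not used by the rule. Over 500 bp each side of the TSS, the bivalent promoters had a median of 79.0 CpGs, a median GC content of 65.4% (quartiles 59.4 and 70.7) and a median CpG observed to expected ratio of 0.756 (quartiles 0.648 and 0.850). The H3K4me3-only promoters lay close by, with a GC content of 62.3% and a ratio of 0.781. The H3K27me3-only promoters had a GC content of 51.2% and a ratio of 0.243, and unmarked promoters 49.4% and 0.262. A GC content of at least 50% together with a ratio of at least 0.6 was met by 1871 of 2326 bivalent promoters (80.4%), 84.3% of H3K4me3-only, 8.72% of H3K27me3-only and 62.1% of all coding promoters. In CpG content the bivalent promoters therefore resembled the other promoters with H3K4me3 and not those with H3K27me3 alone.

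**Figure D1:**
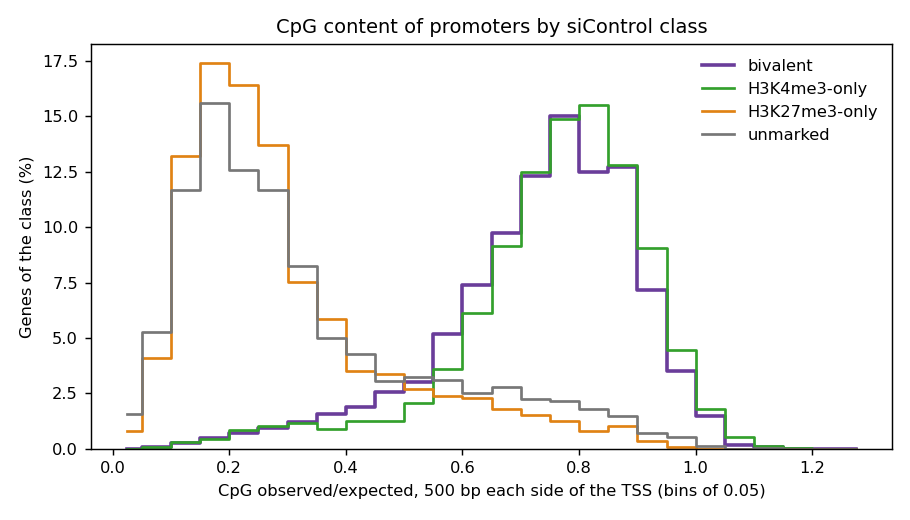
CpG observed to expected ratio over 500 bp each side of the TSS (horizontal axis, bins of 0.05) against the percentage of genes of each siControl class (vertical axis). The bivalent class has a median of 0.756 and lies with the H3K4me3-only class (0.781), apart from the H3K27me3-only (0.243) and unmarked (0.262) classes.

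Short sequence motifs were searched on both strands of the 250 bases that end at the TSS. The GC box GGGCGG, a binding sequence of SP factors, was found in 1588 bivalent promoters (68.3%), against 65.3% of H3K4me3-only, 19.0% of H3K27me3-only, 21.0% of unmarked and 52.7% of all coding promoters. The TATA sequence TATAAA was found in 148 (6.36%), against 5.30%, 18.8%, 20.3% and 9.58% of the same classes. The E-box CAGGTG, which SNAI and ZEB factors can bind, was found in 499 (21.5%), against 15.6%, 24.1%, 20.7% and 18.4%, so that the bivalent share lay between those of the other classes. The AP-1 sequence TGANTCA was found in 80 (3.44%), against 3.40%, 8.93%, 9.20% and 4.97%. Of the 5 promoters printed above, COL13A1 held TATAAA and no GGGCGG, and the other 4 held GGGCGG and no TATAAA. These are matches of letters and do not show binding.

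The bivalent genes were long, with a median length of 56972 bp against 31696 bp for H3K4me3-only, 14216 bp for H3K27me3-only and 10297 bp for unmarked genes. Among them 489 had a single coding TSS and 1837 had several, of which 1299 had at least 1 TSS outside the rule, so that a bivalent promoter was often 1 of several promoters of its gene. A gene with several TSSs has more windows that can meet the rule, and gene length was not compared at equal numbers of TSSs. Among the autosomes the bivalent share of coding genes ran from 6.06% on chromosome 19 (87 of 1436) and 6.64% on chromosome 22 (29 of 437) to 15.8% on chromosome 2 (195 of 1234).

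The rule was met with wide margins at most genes and narrow ones at some. The smallest overlap among the 4 siControl lists had a median of 654 bp, was under 100 bp at 104 genes and went down to 2 bp. Just inside the rule lay BARX2, a homeobox factor, with 1546 and 1646 bp of H3K4me3 but 2 and 918 bp of H3K27me3 in the window. SH2B2, a signalling adaptor, had 234 and 3 bp of H3K4me3 beside 1059 and 1363 bp of H3K27me3. Just outside lay 934 genes with 3 of the 4 lists, 654 of which lacked H3K27me3 in siControl replicate 1. SASH1, a scaffold protein, was one of them, with 1692 and 1606 bp of H3K4me3 but 0 and 2001 bp of H3K27me3. The median −log10 q of the best H3K27me3 peak was 2.08 and 2.63 in the siControl libraries, and that of the best H3K4me3 peak 10.8 and 31.2. H3K27me3 was called as broad and H3K4me3 as narrow peaks, so the q-values of the 2 marks are not like measures. A single limit on them need not be equally strict for both. At a −log10 q of at least 3 for both marks only 126 genes remained, all of them among the 2326. Where only the H3K4me3 peaks were held to that limit, 2266 remained.

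Along the promoters the marks had different shapes. H3K4me3 formed a single narrow crest just after the TSS, in the bin 150 or 250 bp downstream in each of the 6 lists, where it covered 69.4% to 91.0% of the bases, and had fallen to between 0.749% and 1.92% at 1950 bp upstream. H3K27me3 was broad and had its highest coverage 750 to 1050 bp downstream in each of the 6 lists. In siControl replicate 1 it covered 51.7% of bases just upstream of the TSS and 68.0% at its highest bin, and in siControl replicate 2 74.5% and 86.1%. In the 4 lists the rule did not use, it covered 68.1% and 77.8%, and 67.9% and 79.9%, in siControl+TGFβ replicates 1 and 2. In siPHF13+TGFβ replicates 1 and 2 it covered 30.1% and 42.3%, and 68.5% and 79.8%. Further upstream it was lower still, at 20.9% to 67.9% of bases 1950 bp upstream in the 6 lists. H3K4me3 and H3K27me3 peaks shared at least 1 bp inside the window in both siControl libraries at 1896 of the 2326 promoters. The share of the H3K4me3-covered bases that were also under H3K27me3 had a median of 54.0% in siControl replicate 1 and 100% in replicate 2, whose H3K27me3 list is the longest. A peak list from many cells does not show whether the marks lie on the same allele or in the same cell.

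**Figure D2:**
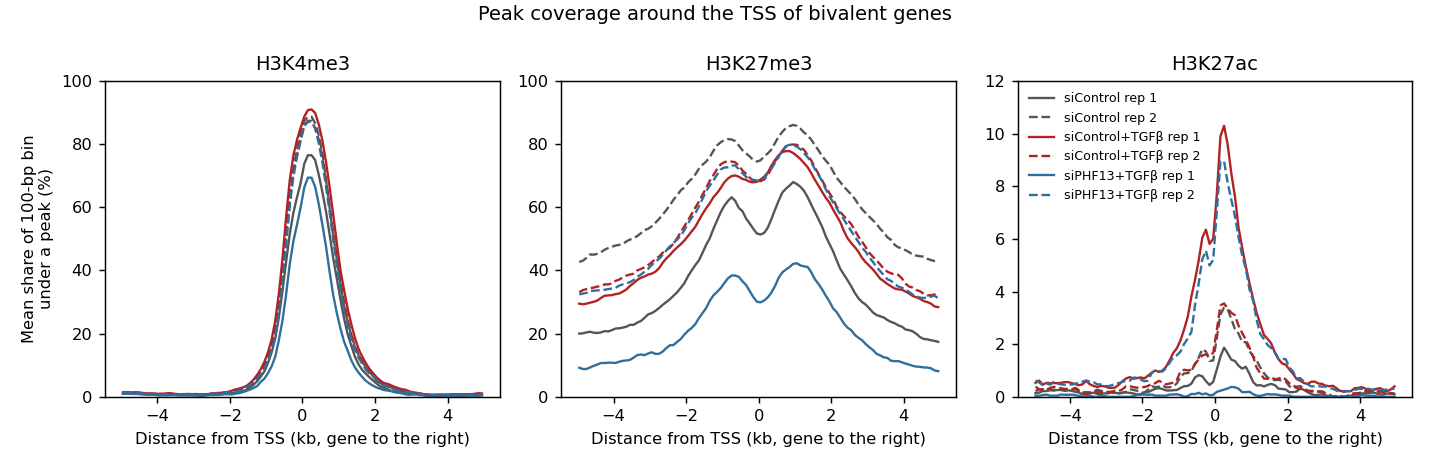
Mean percentage of each 100-bp bin under a peak (vertical axis) against distance from the TSS in kb, with the gene to the right, over the 2326 bivalent promoters, for each library (colour for group, solid for replicate 1 and dashed for replicate 2); the vertical scale of the H3K27ac panel ends at 12%. H3K4me3 forms 1 crest just downstream, H3K27me3 is broad with its maximum 750 to 1050 bp downstream, and H3K27ac covers at most 10.3% of a bin.

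Coverage is given from here on as base pairs under peaks within 2.5 kb of the TSS, a window of 5001 bp. Medians over the bivalent genes in siControl were 1224 and 1382 bp of H3K4me3 and 2530 and 4192 bp of H3K27me3. In the 4 H3K4me3 lists that the rule did not use, the bivalent median was 996 to 1490 bp and the H3K4me3-only median 1657 to 2082 bp, lower at bivalent genes in 4 of 4 libraries with a mean difference of −617 bp (SD 34.3 bp; exact two-sided sign-flip test, p = 0.125, the smallest that 4 libraries allow). The median fold enrichment of the strongest H3K4me3 peak, as given by the authors' peak caller, was 6.54 to 7.87 at bivalent and 5.86 to 6.57 at H3K4me3-only genes, higher at bivalent genes in 4 of 4 libraries (exact p = 0.125, likewise the smallest). In the 4 H3K27me3 lists not used by the rule, bivalent promoters kept the mark more often than H3K27me3-only promoters in 4 of 4 libraries, at 73.5% to 95.8% against 49.3% to 90.9% (mean difference 10.7 percentage points, SD 9.04, exact p = 0.125).

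H3K27ac, which the rule did not use, was rare at these promoters. A peak lay in the TSS window of 4.39% and 8.73% of bivalent genes in the siControl libraries, 19.3% and 8.86% in the siControl+TGFβ libraries and 1.16% and 17.2% in the siPHF13+TGFβ libraries. At H3K4me3-only genes the siControl shares were 78.6% and 90.5%, the siControl+TGFβ shares 96.1% and 90.0%, and the siPHF13+TGFβ shares 32.1% and 95.4%. The bivalent share was lower in 6 of 6 libraries, with a mean difference of −70.5 percentage points (SD 19.6; exact two-sided sign-flip test, p = 0.0312, the smallest that 6 libraries allow). At H3K27me3-only genes the share was 0 to 0.412%, so that bivalent genes exceeded them in 6 of 6 libraries by a mean of 9.72 percentage points (SD 7.01, exact p = 0.0312). With lists of equal length the first difference was −36.5 percentage points.

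Most bivalent genes, 1817 of 2326 (78.1%), had no H3K27ac peak in the window in any of the 6 lists, and 26 had one in all 6. The 239 genes with H3K27ac in 3 or more lists had more H3K4me3 and less H3K27me3 in siControl than the 1817 without it. H3K4me3 covered a median of 1774 and 1832 bp at the former and 1098 and 1294 bp at the latter, and H3K27me3 1502 and 2041 bp against 2880 and 4407 bp. The median CpG ratio was 0.781 and 0.752. In both siControl+TGFβ libraries and both siPHF13+TGFβ libraries, an H3K27me3 peak was also less frequent among bivalent genes with H3K27ac than among those without, at 83.3% against 96.9%, 87.4% against 96.6%, 44.4% against 73.8% (27 genes with H3K27ac) and 87.0% against 97.6%. Even so, most promoters listed with H3K27ac in 3 of these 4 libraries were listed with H3K27me3 as well.

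**Figure D3:**
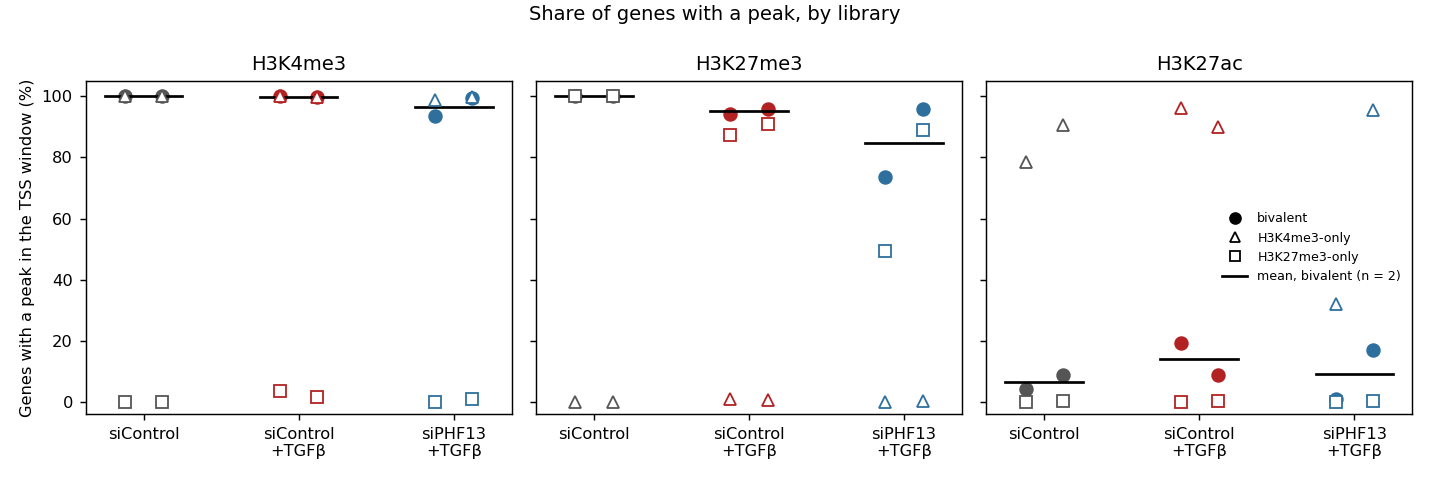
Percentage of genes with a peak in the TSS window (vertical axis) in each library, by group, for bivalent (filled circles, with the mean of 2 libraries as a bar), H3K4me3-only (triangles) and H3K27me3-only genes (squares), replicate 1 to the left. For H3K27ac the bivalent genes lie between 1.16% and 19.3% and the H3K4me3-only genes between 32.1% and 96.1%; siPHF13+TGFβ replicate 1 is the lower of its pair in each panel.

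The genes were grouped by role with 23 gene lists. The share of all coding genes that were bivalent, 11.7%, is the value to read them against. In the list counts no test was made. Collagens, the structural proteins of the matrix, had 22 of 44 members bivalent, and WNT ligands, Frizzled receptors and antagonists 19 of 40 (47.5%). Potassium channels had 42 of 93 (45.2%), axon guidance ligands and receptors 30 of 72 (41.7%), pancreatic lineage and endocrine factors 14 of 34 (41.2%), FGF ligands and receptors 11 of 27 (40.7%), and developmental homeobox factors outside the HOX clusters 44 of 118 (37.3%). TGFβ and BMP ligands, receptors and antagonists had 21 of 64 (32.8%). Few were bivalent among clustered protocadherins (2 of 53), of which 33 had neither mark, and among cytoplasmic ribosomal proteins (1 of 77), of which 75 had H3K4me3 alone. HOX cluster genes, often bivalent in stem cells, stood near the background with 5 of 39 (12.8%), and 17 had H3K4me3 alone. The genes of the H3K4 and Polycomb machinery stood there too, with 6 of 49 (12.2%).

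**Figure D4:**
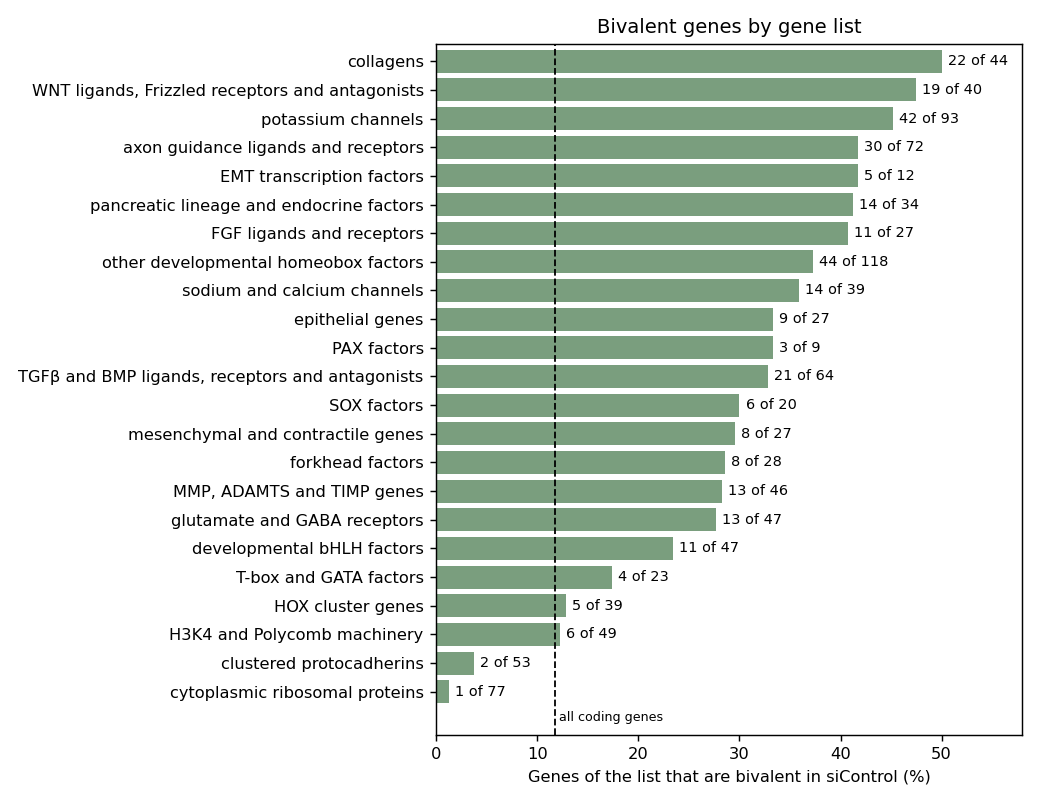
Percentage of the genes of each list that are bivalent in siControl (bars, from 0), with the number bivalent of the number measured at each bar; the dashed line is the 11.7% of all coding genes. Collagens (22 of 44) and WNT pathway genes (19 of 40) are the highest and ribosomal proteins (1 of 77) the lowest.

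Among developmental transcription factors H3K27ac was counted by family, and differences between these small families were not tested. In a given list it was found at 0 to 5 of the 44 homeobox genes, 0 of the 11 bHLH factors, 0 to 3 of the 6 SOX factors and 1 to 3 of the 8 forkhead factors, where 1.16% to 19.3% of all bivalent genes had it. EMX1, a cortical homeobox factor, was covered by H3K27me3 over 5001 and 5001 bp in siControl cells, 5001 and 5001 bp in siControl+TGFβ cells and 3748 and 5001 bp in siPHF13+TGFβ. Its H3K4me3 spanned 1886 and 2773 bp, 2714 and 2442 bp, and 1976 and 2699 bp, and H3K27ac was at 0 in each of the 6 lists. Only siPHF13+TGFβ replicate 1 left part of the EMX1 window free of H3K27me3. HOXA13 had 1495 and 1574 bp, 1573 and 1640 bp, and 1332 and 1600 bp of H3K4me3. Its H3K27me3 was uneven between replicates, at 1658 and 5001 bp in siControl cells, 4765 and 4472 bp in siControl+TGFβ cells and 1110 and 2932 bp in siPHF13+TGFβ. Both siControl+TGFβ values of H3K27me3 at HOXA13 lay inside the range of the siControl pair.

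Of the pancreatic lineage and endocrine genes, those bivalent included NEUROG3, which starts endocrine differentiation, its partners in the endocrine programme NKX2-2, PAX6, ISL1 and MAFA, and the early pancreatic factors MNX1, ONECUT1 and GATA6. The 14 genes kept H3K4me3 in 13 and 14 of 14 cases and H3K27me3 in 12 and 14 of 14 in the siPHF13+TGFβ libraries. NEUROG3 had H3K27me3 over 5001 bp in all lists but siPHF13+TGFβ replicate 1, with 4187 bp, and 529 and 1673 bp, 2484 and 2280 bp, and 0 and 1210 bp of H3K4me3. Its H3K4me3 was wider in both siControl+TGFβ libraries than in the other 4. Those libraries have the longest H3K4me3 lists, and the mean H3K4me3 length over all bivalent genes was highest in them too. GATA6, which maintains the classical epithelial identity of pancreatic tumours, had 1448 and 2312 bp, 2328 and 2234 bp, and 1252 and 2124 bp of H3K4me3, and H3K27ac in 1 list only, 204 bp in siControl+TGFβ replicate 1.

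Of the bivalent signalling genes, 0 to 4 of the 19 WNT pathway genes and 0 to 2 of the 21 TGFβ and BMP pathway genes had H3K27ac in a given list. WNT11, a non-canonical WNT ligand, had 2255 and 2429 bp of H3K4me3 in siControl, 2442 and 2193 bp in siControl+TGFβ cells and 2110 and 2265 bp in siPHF13+TGFβ, and its H3K27ac was 0 and 0 bp, 326 and 0 bp, and 0 and 167 bp. FST, the activin antagonist follistatin, had 2155 and 2961 bp, 3473 and 2837 bp, and 1912 and 2874 bp of H3K4me3 and no H3K27ac. BMP2, a BMP ligand, had between 1628 and 1722 bp of H3K4me3 in the 6 lists and no H3K27ac. The H3K4me3 ranges of the groups overlapped at WNT11 and FST, and at BMP2 both siControl+TGFβ values lay below both siControl values.

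Of the 12 EMT transcription factors, 5 were bivalent in siControl, namely SNAI2, SNAI3, ZEB2, PRRX1 and GSC. These factors repress epithelial genes or drive mesenchymal programmes. ZEB2 had 1399 and 1459 bp of H3K4me3 in siControl, 1906 and 1846 bp in siControl+TGFβ cells and 1369 and 1679 bp in siPHF13+TGFβ. Its H3K27me3 spanned 1840 and 4065 bp, 3896 and 3386 bp, and 1479 and 3998 bp, and H3K27ac was absent from each of the 6 lists. The H3K4me3 of ZEB2 was thus wider in both siControl+TGFβ libraries than in the other 4. SNAI2 had H3K27ac in 1 siControl+TGFβ library (232 bp) and 1 siPHF13+TGFβ library (171 bp). None of the 5 had H3K27ac in both libraries of a group.

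Of the 27 mesenchymal and contractile genes 8 were bivalent, among them FN1, LOX, which cross-links collagen, FBN1, which encodes fibrillin, and CDH11, a mesenchymal cadherin. FN1 had 1820 and 1611 bp of H3K4me3 in siControl, 1632 and 1819 bp in siControl+TGFβ cells and 1548 and 1589 bp in siPHF13+TGFβ, with 3689 and 4370 bp, 4681 and 4094 bp, and 2122 and 3947 bp of H3K27me3 and no H3K27ac. For FN1 neither mark separated siControl from siControl+TGFβ. Epithelial genes were bivalent as well, 9 of 27, including CDH1 and EPCAM, both adhesion molecules of epithelial cells. CDH1 had 1517 and 1502 bp, 1571 and 1159 bp, and 1157 and 1410 bp of H3K4me3 and 773 and 834 bp, 1607 and 1606 bp, and 0 and 1246 bp of H3K27me3. Its H3K27me3 was wider in both siControl+TGFβ libraries than in both siControl libraries, and siPHF13+TGFβ replicate 1 listed none.

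PCDHB8, a clustered protocadherin, PAPLN, which encodes the matrix protein papilin, and COL1A1, the main fibrillar collagen, were also bivalent. PAPLN had 1313 and 1578 bp, 1452 and 1470 bp, and 981 and 1230 bp of H3K4me3, lower in both siPHF13+TGFβ libraries than in the other 4. Its H3K27me3 spanned 2974 and 4864 bp, 5001 and 4531 bp, and 2333 and 3660 bp, and H3K27ac was absent. Both siPHF13+TGFβ lengths of H3K27me3 at PAPLN lay below both siControl+TGFβ lengths (log2 change −0.68, SE 0.38, limma adjusted p = 0.81). COL1A1 carried H3K27ac before treatment, with 264 and 420 bp in siControl cells, 1769 and 912 bp in siControl+TGFβ cells and 0 and 1263 bp in siPHF13+TGFβ. At COL1A1 the acetylated length was greater in both siControl+TGFβ libraries than in both siControl libraries, and the siPHF13+TGFβ values lay on both sides. PCDHB8 had 813 and 1050 bp, 1089 and 1090 bp, and 953 and 1291 bp of H3K4me3 and no H3K27ac. The log2 change of its H3K27me3 length with PHF13 depletion under TGFβ was −0.01 (SE 0.98). The study reports higher H3K27me3 occupancy after PHF13 depletion and gives PCDHB8 and PAPLN as examples, by browser tracks and ChIP-qPCR. Peak length is not the occupancy measured there.

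**Figure D5:**
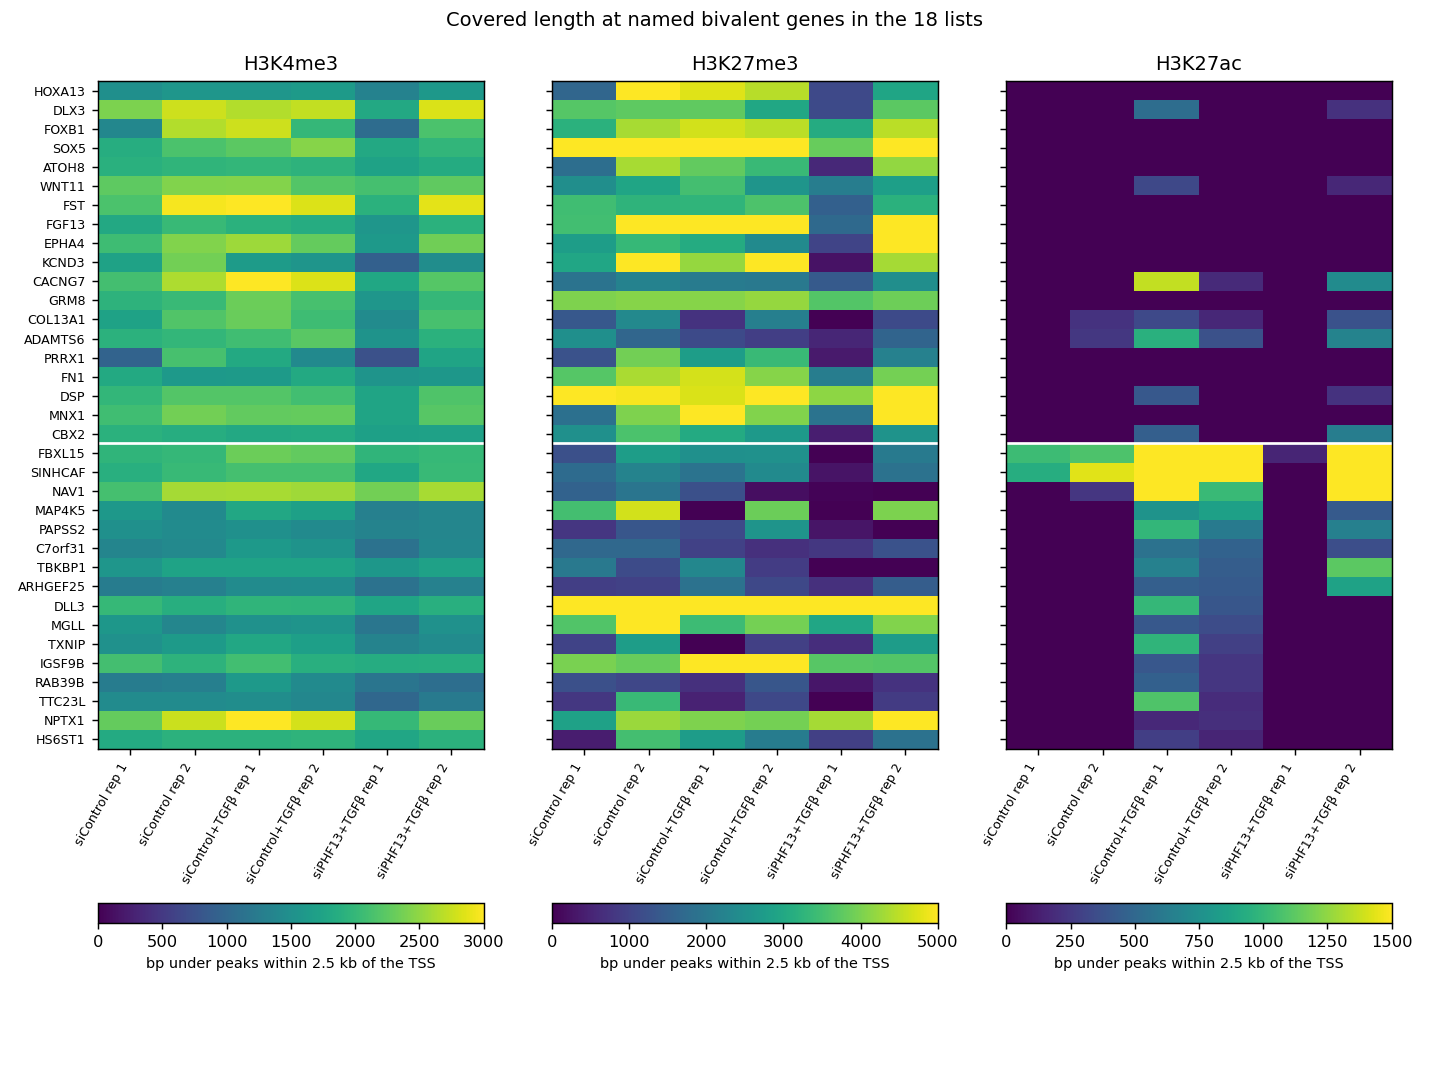
Base pairs under peaks within 2.5 kb of the TSS (colour, scale under each panel, which differs between the modifications) for named bivalent genes (rows) in the 6 libraries of each modification (columns). Above the white line is the leading gene of each list, below it are genes named for gaining or losing H3K27ac. Values past the end of a scale take its last colour, and siPHF13+TGFβ replicate 1 is the emptiest H3K27ac column.

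After TGFβ both marks were still present at most bivalent promoters. These contrasts involve the lists that chose the genes, so that values could only fall from 100% and are given as a description. H3K4me3 was present at 100% and 99.8% of the 2326 genes in the siControl+TGFβ libraries and H3K27me3 at 94.3% and 95.8%. Both marks were found in both siControl+TGFβ libraries at 2134 genes (91.7%), and H3K27me3 was missing from both at 44.

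To ask whether TGFβ brought H3K27ac to bivalent promoters, the H3K27ac lists of siControl+TGFβ and siControl were compared. The share of bivalent genes with H3K27ac was 14.1% ± 7.42 in siControl+TGFβ and 6.56% ± 3.07 in siControl (SD, n = 2), higher in 4 of 4 pairs of libraries, with a difference of 7.55 percentage points (exact two-sided permutation test, p = 0.333, the smallest that 2 against 2 allows). siControl+TGFβ replicate 1, which has the longest H3K27ac list, carried most of it. Without that library the difference was 2.30 percentage points. It was 0.322 with lists of equal length. H3K27ac was gained, that is present in both siControl+TGFβ libraries and in neither siControl library, at 51 bivalent genes (2.19%), where 1.63% of all coding genes and 1.98% of H3K4me3-only genes gained it. It was lost at 0, against 0.00505% of all. Read over the genes that lacked H3K27ac in both siControl libraries, 51 of 2116 bivalent genes (2.41%) gained it, against 215 of 977 H3K4me3-only genes (22.0%), 2 of 1452 H3K27me3-only genes (0.138%) and 324 of 9436 coding genes (3.43%). Most H3K4me3-only genes had H3K27ac before treatment and are not in that count. If the lists named NCT were those of siControl+TGFβ, the H3K27ac shares of 1.16% and 17.2% would stand against 4.39% and 8.73%, higher in 2 of 4 pairs. With lists of equal length the count of 51 was 5 (0.215%, against 1.07% of all coding genes). It was 247 (10.6% against 5.23%) without siControl+TGFβ replicate 2 and 106 (4.56% against 7.88%) without siControl replicate 2.

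The 51 genes kept H3K4me3 in both siControl+TGFβ libraries, and 43 kept H3K27me3 in both, 5 in 1 and 3 in neither. MAP4K5, a kinase of the MAP kinase cascade, had H3K27ac of 0 and 0 bp in siControl cells, 769 and 853 bp in siControl+TGFβ cells and 0 and 425 bp in siPHF13+TGFβ. PAPSS2, which makes the sulfate donor for matrix proteoglycans, had 0 and 0 bp, 996 and 610 bp, and 0 and 653 bp. C7orf31 had 0 and 0 bp, 567 and 471 bp, and 0 and 362 bp. In these genes siPHF13+TGFβ replicate 2 held the peak and replicate 1 did not. TBKBP1, an adaptor of the kinase TBK1, had 0 and 0 bp, 660 and 445 bp, and 0 and 1123 bp, and ARHGEF25, a guanine nucleotide exchange factor, 0 and 0 bp, 454 and 425 bp, and 0 and 867 bp. In both, siPHF13+TGFβ replicate 2 had the longest coverage of the 6. NAV1, a neuron navigator, had 0 and 240 bp, 2077 and 1014 bp, and 0 and 2492 bp, and its H3K27me3 covered 1578 and 1951 bp in siControl cells, 1212 and 176 bp in siControl+TGFβ cells and 42 and 0 bp in siPHF13+TGFβ. In NAV1 H3K27me3 was lower in both siPHF13+TGFβ libraries than in the other 4. FBXL15 and SINHCAF, a subunit of the SIN3 complex, were counted as gained because a peak reached into the 1 kb window. Within 2.5 kb they had H3K27ac before treatment, 1026 and 1081 bp at FBXL15 and 934 and 1434 bp at SINHCAF, against 1834 and 1733 bp and 1618 and 1546 bp in siControl+TGFβ.

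Covered H3K27ac length was tested with limma on log2(bp + 100) over 11373 coding genes with a mean of at least 100 bp, 386 of them bivalent, so that most bivalent genes had too little acetylation to enter. At a Benjamini-Hochberg adjusted p under 0.05, 0 of the 386 were called and 0 of the 11373 (0%). At an unadjusted p under 0.05 there were 0 of the 386 and 1 of the 11373. PAPSS2, for example, had a log2 change of 3.14 (SE 1.89, adjusted p = 0.99).

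To ask what PHF13 depletion under TGFβ did to the marks, siPHF13+TGFβ was compared with siControl+TGFβ. Neither H3K4me3 nor H3K27me3 values of these groups entered the rule. H3K4me3 was present at 93.5% and 99.6% of the bivalent genes in siPHF13+TGFβ and at 100% and 99.8% in siControl+TGFβ, lower in 4 of 4 pairs of libraries (mean difference −3.33 percentage points, exact p = 0.333, the smallest possible), and the difference was −0.279 without siPHF13+TGFβ replicate 1. Its mean covered length was 984 and 1387 bp against 1553 and 1435 bp, also lower in 4 of 4 pairs (mean difference −308 bp, pooled SD 210 bp, exact p = 0.333). H3K27me3 was present at 73.5% and 95.7% against 94.3% and 95.8% (mean difference −10.4 percentage points, exact p = 0.667), and without siPHF13+TGFβ replicate 1 the difference was 0.709 in the other direction. The share of genes with both marks was 68.7% and 95.4% against 94.3% and 95.6%, where the H3K4me3 and H3K27me3 lists of a group were joined by replicate number (mean difference −12.9, exact p = 0.667), and 0.430 in the other direction without that library. The lower shares were those of siPHF13+TGFβ replicate 1, the library with the shortest lists, while those of replicate 2 lay close to siControl+TGFβ replicate 2. Both marks were found in all 12 lists at 1545 bivalent genes (66.4%), and at 1954 (84.0%) when the H3K27me3 list of siPHF13+TGFβ replicate 1 was left out.

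The H3K27ac share under PHF13 depletion, 1.16% and 17.2% (mean 9.20% ± 11.4), overlapped that of siControl+TGFβ, 19.3% and 8.86% (14.1% ± 7.42; SD, n = 2). The difference of −4.90 percentage points was smaller than the spread between replicates (exact p = 0.667). It turned to 3.14 without siPHF13+TGFβ replicate 1 and to 0.344 without siControl+TGFβ replicate 1, and was −12.9 without siPHF13+TGFβ replicate 2. With lists of equal length it was −0.0860 (exact p = 1.00).

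Genes that lost H3K27ac with PHF13 depletion, with a peak in both siControl+TGFβ libraries and in neither siPHF13+TGFβ library, numbered 8 of the 2326 (0.344%), where 0.272% of all coding genes did. Of the 199 bivalent genes with H3K27ac in both siControl+TGFβ libraries the 8 are 4.02%, against 31 of 9738 H3K4me3-only genes (0.318%) and 54 of 10245 coding genes (0.527%). The 8 were DLL3, MGLL, TXNIP, IGSF9B, RAB39B, TTC23L, NPTX1 and HS6ST1. DLL3, a Notch ligand, had H3K27ac of 0 and 0 bp in siControl cells, 1001 and 401 bp in siControl+TGFβ cells and 0 and 0 bp in siPHF13+TGFβ, with H3K27me3 over all 5001 bp in each of the 6 lists. MGLL had 0 and 0 bp, 414 and 348 bp, and 0 and 0 bp. TXNIP, an inhibitor of thioredoxin that limits glucose uptake, had 0 and 0 bp, 982 and 283 bp, and 0 and 0 bp. All 8 genes were at 0 bp in both siControl libraries, and their lower siControl+TGFβ value was 157 to 401 bp. siPHF13+TGFβ replicate 1 listed H3K27ac at 1.16% of bivalent genes, and without that library the losses were 8. These genes were chosen by the siControl+TGFβ lists, which both comparisons share, so that the return to 0 is not a separate observation of the gain. IGSF9B and NPTX1, both proteins of synapses, kept H3K27me3 in each of the 6 lists, at 3670 to 5001 bp and 2870 to 5001 bp. H3K27ac was gained at 1 bivalent gene, COX6B2, named after its values were seen (0 and 0 bp, then 191 and 670 bp), where 0.00505% of all coding genes gained it. COX6B2 is the testis form of a cytochrome c oxidase subunit. Without siPHF13+TGFβ replicate 1 the gains were 50 (2.15%, against 0.737% of all coding genes). The losses were 173 (7.44% against 33.8%) without siPHF13+TGFβ replicate 2 and 100 (4.30% against 1.74%) without siControl+TGFβ replicate 2. They were 14 (0.602% against 0.383%) without siControl+TGFβ replicate 1, and 2 (0.0860% against 0.943%) with lists of equal length.

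H3K4me3 was lost at 6 bivalent genes (0.258%), where 0.469% of all coding genes lost it, and gained at 0, against 0.00505% of all. Among the genes with H3K4me3 in both siControl+TGFβ libraries, 6 of 2321 bivalent genes (0.259%) lost it, against 8 of 10827 H3K4me3-only genes (0.0739%) and 93 of 14141 coding genes (0.658%). At WNT3, a canonical WNT ligand, it covered 150 and 342 bp in siControl cells, 661 and 420 bp in siControl+TGFβ cells and 0 and 0 bp in siPHF13+TGFβ. RBFOX3, the neuronal splicing factor also called NeuN, had 443 and 764 bp, 865 and 280 bp, and 0 and 0 bp of H3K4me3. RAET1L, a ligand of the receptor NKG2D, had 443 and 676 bp, 632 and 343 bp, and 0 and 0 bp. These 3 had narrow H3K4me3 and kept H3K27me3, which at RBFOX3 covered 4214 bp in siPHF13+TGFβ replicate 1 and 5001 bp in the other 5 lists. RETN, the hormone resistin, kept 315 bp within 2.5 kb in siPHF13+TGFβ replicate 2. PPP1R9A and SH2B2 met the criterion only because their peak no longer reached into the 1 kb window, with 1115 and 1441 bp and 1302 and 1457 bp still present within 2.5 kb. Without siPHF13+TGFβ replicate 2 the losses were 148 (6.36% of bivalent genes), out of 495 among all coding genes. With lists of equal length they were 19 (0.817%, against 0.283% of all coding genes). The log2 change of WNT3 was −2.65 (SE 0.75, limma adjusted p = 0.389).

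H3K27me3 was lost at 30 bivalent genes (1.29%), where 1.20% of all coding genes lost it. Among the genes with H3K27me3 in both siControl+TGFβ libraries, 30 of 2139 bivalent genes (1.40%) lost it, against 45 of 1212 H3K27me3-only genes (3.71%) and 238 of 4241 coding genes (5.61%). TMEM100, a membrane protein downstream of BMP signalling, had 3778 and 5001 bp in siControl cells, 2734 and 2831 bp in siControl+TGFβ cells and 0 and 1001 bp in siPHF13+TGFβ. IGSF3, an immunoglobulin superfamily protein, had 879 and 2214 bp, 1809 and 2070 bp, and 0 and 225 bp. NTNG1, the axon guidance cue netrin-G1, had 1453 and 2332 bp, 1629 and 2259 bp, and 0 and 345 bp. In all 3 the siPHF13+TGFβ values lay below the other 4, an order that the choice of these genes fixed within the 1 kb window. H3K27ac was absent at all 3 in each of the 6 lists. Of the 30, 29 kept H3K4me3 in both siPHF13+TGFβ libraries, and H3K27ac was found in both of them at 1, in 1 at 12 and in neither at 17. Without siPHF13+TGFβ replicate 2 the losses were 474 (20.4%, against 8.15% of all coding genes). Without siControl+TGFβ replicate 1 they were 47 (2.02% against 2.60%). H3K27me3 was gained at 5 bivalent genes (0.215%), where 0.0858% of all coding genes gained it. All 5 had the mark in siControl by the rule and lacked it in the window of both siControl+TGFβ libraries. VTN, the matrix protein vitronectin, had 458 and 1213 bp in siControl cells, 0 and 0 bp in siControl+TGFβ cells and 620 and 727 bp in siPHF13+TGFβ, while its H3K27ac was 0 and 0 bp, 1392 and 216 bp, and 0 and 1150 bp. DLG1, a polarity scaffold, had 804 and 2457 bp, 0 and 0 bp, and 464 and 1540 bp of H3K27me3, and NAP1L2, a histone chaperone of neurons, 299 and 659 bp, 0 and 0 bp, and 557 and 2095 bp. The gains were 16, 20 and 25 without siPHF13+TGFβ replicate 1, siControl+TGFβ replicate 1 and siControl+TGFβ replicate 2. These are 0.688%, 0.860% and 1.07%, against 1.05%, 0.267% and 0.388% of all coding genes. SOBP and RCC2 kept H3K27me3 outside the 1 kb window in siControl+TGFβ, so that for them the peak moved across the window's edge.

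With limma, 0 of the 2326 bivalent genes changed in covered length of H3K4me3 (0 of 14515 genes, 0%) or of H3K27me3 (0 of 6727, 0%), for which all 2326 passed the filter with their siControl values included, and 0 of 386 in H3K27ac (0 of 11373, 0%), at an adjusted p under 0.05. At an unadjusted p under 0.05, H3K4me3 was narrower at 179 bivalent genes (7.7%) and wider at 0, against 10.9% and 0.0138% of all genes fitted. H3K27me3 was narrower at 15 (0.645%) and wider at 4 (0.172%), against 1.29% and 0.0892% of all genes fitted. H3K27ac was narrower at 0 and wider at 0, where it was narrower at 101 (0.888%) and wider at 0 of all genes fitted. The median log2 change of the bivalent genes was −0.29 for H3K4me3, −0.55 for H3K27me3 and −0.88 for H3K27ac, where all genes fitted had medians of −0.20, −0.75 and −1.37 in the same order. With each library centred on its median over the fitted genes, the medians of the bivalent genes were −0.10, 0.71 and 0.92. Those of all genes fitted were then 0, 0.51 and 0.43. The direction for H3K27me3 and H3K27ac thus turned with the scaling, in the bivalent genes and in all genes fitted. Without siPHF13+TGFβ replicate 2, replicate 1 stands alone in its group, and the calls of such a fit are not read as changes. The uncentred medians of the bivalent genes were then −0.48 for H3K4me3, −1.16 for H3K27me3 and −2.32 for H3K27ac. Those of all genes fitted were −0.31, −1.45 and −3.04. Without replicate 1 instead, the bivalent medians were −0.08, 0 and 0.56, against −0.08, 0 and 0.14 for all genes fitted.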

How the data were processed

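ChIP-seq for H3K4me3, H3K27me3 and H3K27ac was analysed from 18 peak lists, 1 per library, and 6 input samples were not analysed here. Per the labels and the study's methods, the authors trimmed reads with Trim Galore 0.4.1, aligned them to hg19 with Bowtie2 2.4.1, removed duplicates with Picard and called peaks against input with MACS2 2.2.7.1. Each deposited peak carries a fold enrichment (a ratio over input), a −log10 p-value, a −log10 q-value and a score, as computed by the authors' peak caller. H3K4me3 and H3K27ac were deposited as narrow and H3K27me3 as broad peaks. The lowest deposited −log10 q was 1.30 in the narrow lists, below the limit the methods state, and 1.00 for H3K27me3. A deeper or better enriched library gives more and wider peaks, and depth is unknown.

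Genes and TSSs came from GENCODE release 44, lifted to GRCh37 (78702 TSSs of coding transcripts), and on 24 chromosomes no peak ended beyond the GRCh37 sequence. Each gene was represented by the TSS whose window overlapped most siControl H3K4me3 and H3K27me3 lists, the 5′-most on ties. A peak counted with at least 1 bp in the window. For covered length, limma 3.58.1 was run under R 4.3.3 (trend, 3 groups, no replicate block) and applied to log2(bp + 100), with a Benjamini-Hochberg adjusted p over all genes with a mean of at least 100 bp. Shares were compared over libraries by exact permutation. Overlaps were computed in Python 3.11.15 (NumPy 2.4.6). The functions and the limma fit were tested on simulated data. The members and gene lists were chosen with earlier results of these data known. Genes were named by rule, namely the 2 of each list with at least 5 bivalent members that had the largest smaller value of the siControl means of H3K4me3 and H3K27me3 coverage, up to 8 for each H3K27ac change, up to 6 for each methylation change, and study examples and EMT genes that were members. Some sequences and genes picked by the rule are not reported here. Examples beyond these were chosen after their values were seen, among them CDH1, EPCAM and NEUROG3, and the genes at the edges of the rule were those with the smallest and largest overlaps.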

Additional observations from a re-analysis of the deposited data

How the results depend on the processing

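The number of bivalent genes was 126 with peaks of −log10 q of at least 3, 1915 to 2786 with the other windows, overlaps and TSS sets and with equal lists, and 2398 to 3253 with 1 siControl library per mark. The loss at a −log10 q of 3 lies in the H3K27me3 lists, since 2266 genes remained when only H3K4me3 was filtered, an alternative added after seeing the data.

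Leaving out 1 library in turn, the difference in H3K27ac share for siControl+TGFβ against siControl ran from 2.30 to 12.8 percentage points. For siPHF13+TGFβ against siControl+TGFβ it ran from −12.9 to 3.14 (H3K27ac, reversed to 3.14 without siPHF13+TGFβ replicate 1 and to 0.344 without siControl+TGFβ replicate 1), −6.38 to −0.279 (H3K4me3), −21.6 to 0.709 (H3K27me3, reversed without siPHF13+TGFβ replicate 1) and −26.3 to 0.430 (both marks, reversed likewise). The H3K27ac difference between bivalent and H3K4me3-only genes ran from −78.4 to −68.3, with an exact p of 0.0625, the smallest that 5 libraries allow. With lists of equal length the H3K27ac differences shrank to 0.322 (TGFβ) and −0.0860 (PHF13 depletion). The differences for H3K4me3, H3K27me3 and both marks were then −2.28, −7.07 and −8.62 percentage points.

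Limma calls among bivalent genes ran from 0 to 584 (H3K4me3), 0 to 514 (H3K27me3), 0 to 13 (H3K27ac with TGFβ) and 0 to 104 (H3K27ac with PHF13 depletion) with 1 library left out, and were 0 under the other alternatives. The highest numbers of calls with PHF13 depletion came from leaving out siPHF13+TGFβ replicate 2, so that replicate 1, with the shortest lists, stood alone. The highest with TGFβ came from leaving out siControl+TGFβ replicate 2. Each of these fits has 1 library in a group, and its calls are not read as changes. Gains and losses with 1 library left out ran from 57 to 247 and 0 to 8 (H3K27ac with TGFβ), and with PHF13 depletion from 1 to 50 and 8 to 173 (H3K27ac), 0 to 2 and 6 to 148 (H3K4me3) and 7 to 25 and 41 to 474 (H3K27me3).

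Shares of bivalent and of all coding genes follow each count in brackets. With lists of equal length H3K27ac was gained at 5 (0.215% and 1.07%) and lost at 1 bivalent gene (0.0430% and 0.853%) with TGFβ. With PHF13 depletion it was gained at 0 (0% and 0.711%) and lost at 2 (0.0860% and 0.943%). H3K4me3 was gained at 1 (0.0430% and 0.0706%) and lost at 19 (0.817% and 0.283%), and H3K27me3 was gained at 15 (0.645% and 0.247%). At a −log10 q of at least 3, H3K27ac was gained at 0 (0% and 0%) and lost at 5 (0.215% and 0.202%) with PHF13 depletion. H3K27me3 was then lost at 46 (1.98% and 0.308%). With an overlap of at least 200 bp, H3K27ac was gained at 0 (0% and 0%), H3K4me3 lost at 11 (0.473% and 0.631%) and H3K27me3 gained at 8 (0.344% and 0.0807%). The cause of these changes was not tested.

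The replicate numbers are shared by the groups in the labels only, and with a replicate block limma called 0 bivalent genes in all 4 comparisons. The replicate 1 minus replicate 2 differences correlated across genes at −0.428 (H3K4me3, siControl and siControl+TGFβ), −0.266 (H3K4me3, siControl+TGFβ and siPHF13+TGFβ) and −0.243 (H3K27ac, siControl and siControl+TGFβ), and with the numbers crossed, added after seeing the data, the calls were likewise 0.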
